A study of Homo sapiens with 6 samples.

Results

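The RNAs and proteins described here belong to nuclear bodies, and their genes are 8 of the 56303 rows of the deposited gene table. They were chosen by name: NEAT1 and MALAT1, which are long noncoding RNAs, NONO, SFPQ and PSPC1, which encode paraspeckle proteins, and SON, SRRM1 and SRRM2, which encode proteins of nuclear speckles. All 8 were found under these symbols. The cells were SW480, a line from a human colon adenocarcinoma, and RNA-seq was run to learn which transcripts and splicing events depend on RBM39, an RNA-binding splicing factor. The 3 shCtrl libraries came from cells with the label WT for genotype that carried a nonsilencing short hairpin RNA, and the 3 shRBM39 libraries from cells labelled RBM39 knockdown that carried a hairpin against RBM39. Both groups had been infected with lentivirus and, per the study's methods, were kept as stable clonal lines under puromycin, so a difference between lines and a difference caused by the hairpin cannot be told apart. The study's methods call the replicates of a group replicate experiments, and the number of clones is not given in the sources used here, so p-values measure the spread between replicate experiments on these lines.

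Paraspeckles are bodies in the space between chromatin domains that assemble on the long form of NEAT1 as a scaffold. NONO, SFPQ and PSPC1 belong to the DBHS family, whose members pair with each other and coat that RNA. Nuclear speckles lie close by, store splicing factors, and are built around the large proteins SON and SRRM2, while MALAT1 is enriched in them without being needed for their assembly.

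NEAT1 and MALAT1 lie on chromosome 11, on the plus strand, with 52221 bases between them (GRCh38). The long form of NEAT1 and MALAT1 end without a usual poly(A) tail: RNase P cuts in front of a tRNA-like RNA, and the U-rich and A-rich stretches just upstream of the cut pair into a triple helix that protects the end. Libraries made from mRNA can catch such RNAs only through A-rich stretches within them. The last 90 bases before the tRNA-like RNA are shown as DNA letters from the reference genome, because these ends set both RNAs apart from the polyadenylated transcripts around them. Capitals mark the U-rich stretches, found as at least 3 T, then 1 or 2 bases that are C or G, then at least 4 T, and the A-rich end, found as at least 5 A, then GC, then at least 4 A up to the last base. NEAT1 is shown from chr11:65445451-65445540 and MALAT1 from chr11:65506027-65506116, both on the plus strand.
NEAT1 3 prime end: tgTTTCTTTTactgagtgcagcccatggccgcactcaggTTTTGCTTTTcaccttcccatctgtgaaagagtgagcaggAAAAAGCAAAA
MALAT1 3 prime end: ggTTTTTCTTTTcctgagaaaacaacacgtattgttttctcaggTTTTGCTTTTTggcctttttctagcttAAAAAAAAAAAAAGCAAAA

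Each of these ends held 2 U-rich stretches. The A-rich end was 11 bases long in NEAT1, with no run of A beyond 5, and 19 bases long in MALAT1, with a run of 13. The ends were identical at 63 of 99 alignment columns (63.6%), and their longest common run was the 16 bases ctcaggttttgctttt. Only the transcribed strand was searched. Of 250514 GENCODE v44 transcripts of at least 90 bases, 0.16% held at least 2 such U-rich stretches in their last 90 bases and 0.00998% had such an A-rich end. The patterns fit the ends shown, and the A-rich end of NEAT1 is the shortest that its pattern allows. Their presence in NEAT1 and MALAT1 is therefore a description and no test.

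The tRNA-like RNAs that are cut off from these ends are shown next, because a row of the table counts them. The one after NEAT1 lies at chr11:65445541-65445598 and the one after MALAT1, known as mascRNA, at chr11:65506117-65506173.
NEAT1 tRNA-like RNA: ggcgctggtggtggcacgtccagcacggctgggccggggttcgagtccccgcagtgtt
MALAT1 tRNA-like RNA: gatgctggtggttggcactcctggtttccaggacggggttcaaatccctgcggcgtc

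They were identical at 40 of 59 alignment columns (67.8%). NEAT1 also has a short form, which carries a poly(A) tail and is not the paraspeckle scaffold. In GENCODE v44 the longest of the 8 transcripts that stop early spans 3740 bases, against 22767 for the long form. The end of the short form at chr11:65426464-65426513, on the plus strand, is shown for its polyadenylation signal, in capitals.
NEAT1 short form end: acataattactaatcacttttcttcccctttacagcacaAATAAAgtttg

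The signal opens the last 11 bases. The letters AATAAA were present in the last 50 bases of 28.4% of the 250514 transcripts.

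Total counts ran from 18042924 to 20428901 per library. All levels given here are of RNA. Proteins were not measured in these libraries, and the name of a protein stands for its mRNA. RBM39 itself was at 441 ± 6.53 CPM (SD, n = 3) in shCtrl and 278 ± 13.3 CPM in shRBM39, a log2 fold change of -0.67 (SE 0.04, adjusted p = 1.24e-16), or a fold of 0.63. CPM is the count scaled to a common library total, here with TMM factors. Every log2 fold change is shRBM39 minus shCtrl from the quasi-likelihood test of edgeR, with p-values adjusted by Benjamini-Hochberg over 18243 tested genes. That test draws the spread of a gene partly from the other tested genes. Its SE and p-value therefore do not rest on the spread of that gene's libraries alone. Of these genes, 59.1% passed an adjusted p under 0.05, 29.2% as higher and 29.9% as lower in shRBM39, and in 63.3% the libraries of the groups did not overlap. Of 10 epithelial markers, 8 had at least 10 counts in every library, while CDX1 and KRT20 did not. Sums of markers, here and for the other cells below, were scaled by library totals alone, without TMM factors. The summed epithelial markers ran from 12312 to 12954 CPM in shCtrl and from 14175 to 14649 CPM in shRBM39. Of markers of other cells, 1 of 4 of leukocytes (CD68, 283 to 341 counts), 2 of 4 of fibroblasts (COL1A1, 110 to 208, and LUM, 70 to 111) and 2 of 3 of endothelium (PECAM1, 57 to 122, and VWF, 10 to 34) had at least 10 counts in every library, while PTPRC was at 0 and CD3E, DCN and CDH5 had at most 1 count. Their sums ran from 16.4 to 17.5 CPM in shCtrl and 15.5 to 17.0 CPM in shRBM39 for leukocytes, from 10.5 to 11.6 and 13.4 to 13.9 CPM for fibroblasts, and from 3.58 to 4.79 and 6.18 to 7.64 CPM for endothelium, the last 2 without overlap. The part of these markers in the results was not tested. The TMM factors ran from 1.03 to 1.05 in shCtrl and from 0.955 to 0.96 in shRBM39.

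All 8 genes passed the low-count filter and the test, 5 as higher and 3 as lower in shRBM39, read against the 59.1% of all tested genes that did so. Their median log2 fold change was 0.15, against -0.01 over all tested genes. The noncoding RNAs fell most, NONO fell slightly, and PSPC1 and SRRM1 rose most. The libraries of the groups did not overlap in 7 of the 8, SRRM2 being the exception, against 63.3% of all tested genes. By mean CPM in shCtrl the 8 ranked from 21 to 2055 of the 18243 tested genes, and genes with many counts pass more readily. The shares over all tested genes, here and beside the lists below, were not matched for level, so a higher share is no sign of enrichment.

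**Figure D1:**
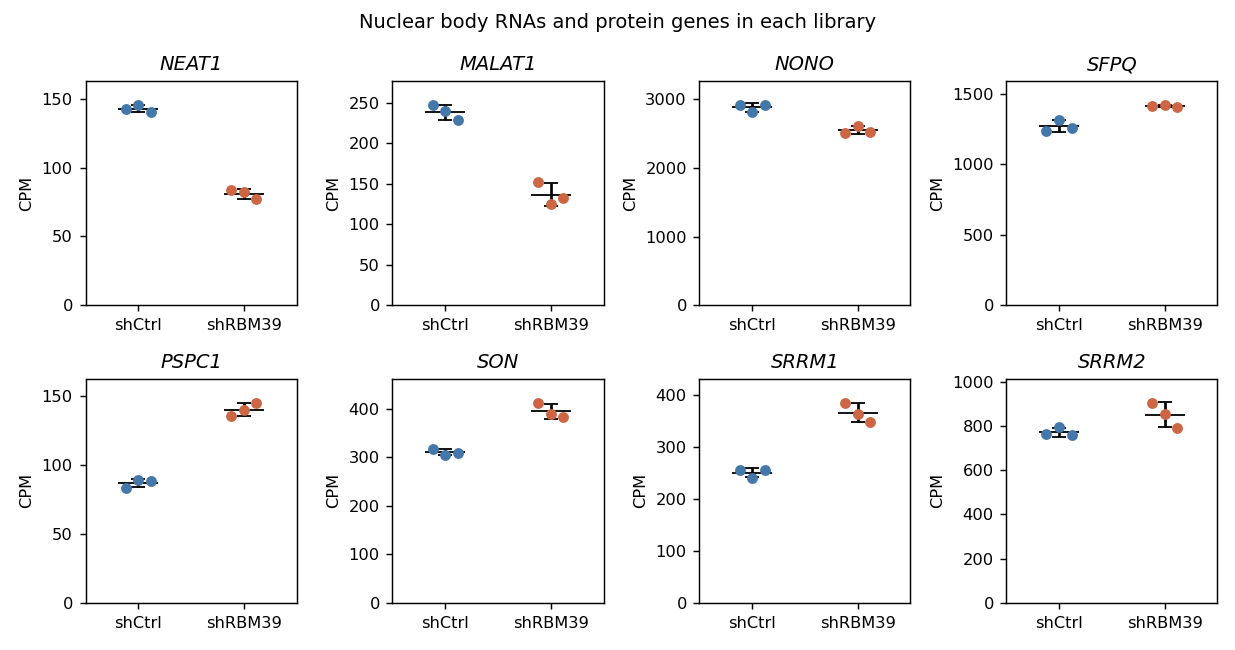
TMM-scaled CPM of the 8 genes in each library, with a black bar for the mean and whiskers for the SD of the 3 libraries of a group. The y axes start at 0. NEAT1 and MALAT1 sat lower in all 3 shRBM39 libraries and PSPC1, SON and SRRM1 higher, while the lowest shRBM39 library of SRRM2, at 791 CPM, lay below the highest shCtrl library, at 794 CPM.

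NEAT1 (ENSG00000245532, chr11:65422774-65445540) was counted over 22767 exonic bases that cover both of its forms. It stood at 142, 146 and 140 CPM in shCtrl replicates 1, 2 and 3, and at 83.9, 82.1 and 77.0 CPM in shRBM39 replicates 1, 2 and 3. Every shRBM39 library was below every shCtrl library. The mean fell from 143 ± 2.60 CPM to 81.0 ± 3.58 CPM (SD, n = 3), and the log2 fold change was -0.82 (SE 0.04, adjusted p = 3.55e-18), or 43.3% less. Only 6.51% of tested genes had a lower log2 fold change. In bulk RNA, fewer cells with the transcript and less of it per cell cannot be told apart.

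MALAT1 (ENSG00000251562, chr11:65497762-65506516) was counted over 8755 bases. It was at 248, 240 and 229 CPM in shCtrl replicates 1 to 3 and at 152, 125 and 132 CPM in shRBM39 replicates 1 to 3. Again the groups were apart, although the shRBM39 libraries differed more among themselves, with a coefficient of variation of 10.4% against 3.87% in shCtrl. The mean fell from 239 ± 9.25 to 136 ± 14.2 CPM (SD, n = 3), and the log2 fold change was -0.81 (SE 0.05, adjusted p = 2.93e-16), or 42.8% less. The counting error alone, about 1.97% per shRBM39 library, is smaller than that spread.

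The ratio of MALAT1 to NEAT1 CPM was 1.74, 1.65 and 1.63 in shCtrl and 1.82, 1.52 and 1.71 in shRBM39 replicates 1 to 3. Its mean log2 value was 0.74 ± 0.05 in shCtrl and 0.75 ± 0.13 in shRBM39 (SD, n = 3), a difference of 0.01 on the log2 scale (two-sided exact permutation test, p = 1.0, where 3 against 3 libraries cannot go below 0.1). The groups overlapped, and the spread within shRBM39 was larger than the difference.

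The table holds 3 short rows nested in NEAT1, picked out after their values had been seen, and they lie 500 to 1345 bases from its start, a stretch that both forms share. Their names do not stand for the short and the long form, so differences between these rows say nothing about the forms. NEAT1_1 (chr11:65423273-65423392, 120 bases) had 213, 226 and 205 counts in shCtrl replicates 1 to 3 and 127, 106 and 119 in shRBM39 replicates 1 to 3. NEAT1_3, over 159 bases, had 277, 279 and 288 counts against 162, 122 and 172. NEAT1_2, over 105 bases, was the lowest, with 40, 38 and 40 counts against 17, 10 and 22. No library of one group reached those of the other in any of the 3 rows.

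The log2 fold changes of NEAT1_1 and NEAT1_3, at -0.74 (SE 0.10) and -0.75 (SE 0.09), lay within 1 SE of the NEAT1 value, and that of NEAT1_2 was -1.13 (SE 0.25). The nested rows cover 384 bases, 1.69% of the NEAT1 row, and their counts summed to 18.2 ± 0.59% of the NEAT1 count in shCtrl and 18.8 ± 2.09% in shRBM39 (SD, n = 3). The share differed by less than the spread within shRBM39. A fragment that only reaches into a short row can count for it, and for several rows at once, which raises the count per base of short rows. The same reads can stand in a nested row and in NEAT1, so these rows are no separate evidence of its fall, and the short form has no stretch of its own from which it could be measured.

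**Figure D2:**
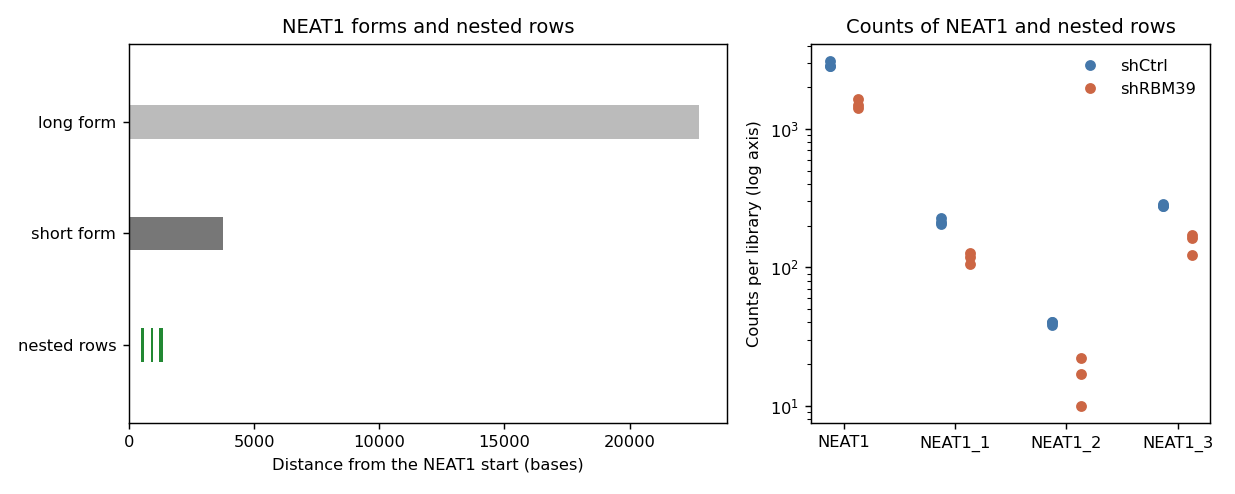
Left, the spans of the long form (22767 bases), the short form (3740 bases) and the 3 nested rows, as distance in bases from the start of NEAT1. Right, counts of NEAT1 and of each nested row in every library on a log axis, with each row lower in all shRBM39 libraries than in any shCtrl library.

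Across MALAT1, 2 rows lie on the opposite strand. AP000769.1 (1589 bases, inside MALAT1) had 347, 332 and 289 counts in shCtrl and 188, 150 and 169 in shRBM39 replicates 1 to 3. That was 6.56 ± 0.38% of the MALAT1 count in shCtrl and 6.63 ± 0.34% in shRBM39 (SD, n = 3), and its log2 fold change was -0.80 (SE 0.09, adjusted p = 1.10e-09). AP000769.7, 396 bases that also lie within a MALAT1 exon, had at most 1 count in any library. The strand setting of the counting is not given in the sources used here, so reads of MALAT1 and of its antisense row may not be fully apart.

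The row for the tRNA-like RNAs of both genes had 7, 15 and 14 counts in shCtrl and 3, 1 and 1 in shRBM39 replicates 1 to 3. All shRBM39 libraries were below all shCtrl libraries. The row did not pass the low-count filter and was not tested, and RNAs this short and without a poly(A) tail are poorly caught by an mRNA library. On the same strand, 57 of its 115 bases also lie in the MALAT1 row. Reads of uncut MALAT1 and of the small RNA cannot be told apart there.

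The mRNAs of the DBHS proteins did not move together. NONO (ENSG00000147140, chrX:71283192-71301168), an RNA- and DNA-binding protein that partners SFPQ in transcription, splicing and DNA repair, was at 2914, 2812 and 2916 CPM in shCtrl replicates 1 to 3. In shRBM39 replicates 1 to 3 it was at 2510, 2613 and 2526 CPM, all below the lowest shCtrl library. The mean fell from 2880 ± 59.6 to 2550 ± 55.2 CPM (SD, n = 3), and the log2 fold change was -0.18 (SE 0.04, adjusted p = 8.12e-05), or 11.5% less. NONO was rank 21 of all tested genes by mean CPM in shCtrl. With library totals alone its log2 fold change was -0.30.

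SFPQ (ENSG00000116560, chr1:35176378-35193148), which binds the long form of NEAT1 and is needed for paraspeckles, was at 1237, 1316 and 1253 CPM in shCtrl and 1414, 1420 and 1405 CPM in shRBM39 replicates 1 to 3. The shRBM39 libraries were all higher and lay close together, with an SD of 7.54 CPM against 42.0 CPM in shCtrl. The mean rose from 1269 to 1413 CPM (n = 3), a log2 fold change of 0.15 (SE 0.04, adjusted p = 0.000463). That call rested on the scaling: with library totals alone the log2 fold change was 0.03 (adjusted p = 0.453).

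PSPC1 (ENSG00000121390, chr13:19674752-19783019), the least abundant of the family in these cells, was at 83.3, 89.4 and 88.4 CPM in shCtrl and at 136, 140 and 145 CPM in shRBM39 replicates 1 to 3. No shCtrl library came near the shRBM39 libraries. The mean rose from 87.0 ± 3.25 to 140 ± 4.72 CPM (SD, n = 3), and the log2 fold change was 0.69 (SE 0.04, adjusted p = 3.52e-16), or 61.3% more. Its log2 fold change was at percentile 93.7 among tested genes.

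Set against each other per length, in RPKM, the mRNAs of the family changed in their shares. NONO made up 74.2 ± 1.02% of the summed RPKM of the family in shCtrl and 68.7 ± 0.39% in shRBM39 (SD, n = 3). SFPQ made up 23.3 ± 0.93% in shCtrl and 27.1 ± 0.35% in shRBM39. The share of PSPC1 was 2.46 ± 0.10% in shCtrl and 4.16 ± 0.15% in shRBM39.

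The ratio of SFPQ to NONO CPM was 0.42, 0.47 and 0.43 in shCtrl and 0.56, 0.54 and 0.56 in shRBM39 replicates 1 to 3, higher by 0.33 on the log2 scale. The ratio of PSPC1 to NONO CPM was 0.029, 0.032 and 0.030 in shCtrl and 0.054, 0.054 and 0.058 in shRBM39 replicates 1 to 3, higher by 0.87 on the log2 scale. For both ratios the groups did not overlap, and the two-sided exact permutation test gave p = 0.1, the smallest that 3 against 3 libraries allow, or 0.125 adjusted over the 5 ratios compared. For other pairs of genes the share without overlap was not computed, here and for the ratios below. Among single tested genes it was 63.3%. A ratio within a library does not depend on how libraries are scaled.

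Of the speckle proteins, SON (ENSG00000159140, chr21:33542618-33577481), which forms the core of speckles with SRRM2 and helps to splice weak introns, was at 317, 305 and 310 CPM in shCtrl and 412, 389 and 383 CPM in shRBM39 replicates 1 to 3. The groups did not overlap. The mean rose from 310 ± 6.16 to 395 ± 15.4 CPM (SD, n = 3), and the log2 fold change was 0.35 (SE 0.04, adjusted p = 8.52e-10), or 27.2% more. With library totals alone its log2 fold change was 0.22. On the opposite strand, GART overlaps 275 and DONSON 307 of the 13172 exonic bases of SON.

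SRRM1 (ENSG00000133226, chr1:24631716-24673267), a serine- and arginine-rich coactivator of splicing, was at 256, 241 and 255 CPM in shCtrl and 385, 363 and 349 CPM in shRBM39 replicates 1 to 3. All shRBM39 libraries were above all shCtrl libraries. The mean rose from 251 ± 8.46 to 365 ± 18.3 CPM (SD, n = 3), and the log2 fold change was 0.54 (SE 0.04, adjusted p = 5.67e-14), or 45.9% more.

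SRRM2 (ENSG00000167978, chr16:2752329-2772538), a very large and largely disordered protein of the spliceosome and the speckle core, was at 762, 794 and 757 CPM in shCtrl and 905, 854 and 791 CPM in shRBM39 replicates 1 to 3. Of these, shRBM39 replicate 3 fell within the range of shCtrl. The mean was 771 ± 19.9 CPM in shCtrl and 850 ± 57.0 CPM in shRBM39 (SD, n = 3), a log2 fold change of 0.14 (SE 0.04, adjusted p = 0.00361), or 10.3% more. With library totals alone it was 0.02 (adjusted p = 0.73), so this call also rested on the scaling, and with the GC and length correction it was 0.29.

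The ratio of SRRM1 to SRRM2 CPM was 0.34, 0.30 and 0.34 in shCtrl and 0.43, 0.42 and 0.44 in shRBM39 replicates 1 to 3, higher by 0.41 on the log2 scale. The ratio of SON to SRRM2 CPM was 0.42, 0.38 and 0.41 in shCtrl and 0.46, 0.46 and 0.48 in shRBM39 replicates 1 to 3, higher by 0.21 on the log2 scale. Neither ratio overlapped between groups, and each had p = 0.1 in the two-sided exact permutation test (0.125 adjusted over the 5 ratios), again the smallest possible.

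**Figure D3:**
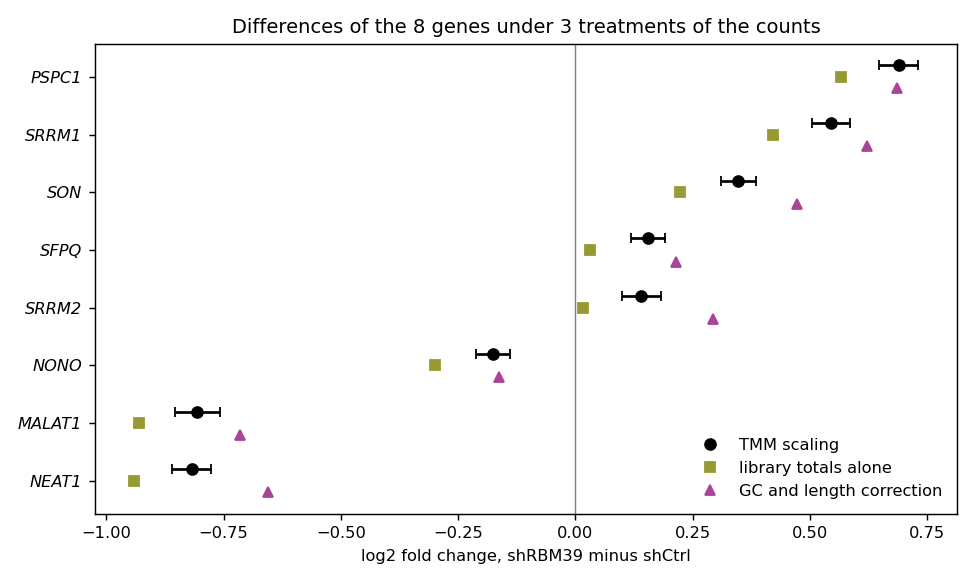
Log2 fold change (shRBM39 minus shCtrl) of the 8 genes after TMM scaling, with whiskers for 1 SE, after scaling by library totals alone, and after libraries were corrected for GC content and gene length. No gene changed sign, NEAT1 and MALAT1 stayed lowest and PSPC1 highest, and SFPQ and SRRM2 came close to 0 with library totals alone.

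The order of the genes by level was read per length, in RPKM. In shCtrl it ran from NONO at 567 RPKM through SFPQ at 178, SRRM2 at 60.6, SRRM1 at 32.0, MALAT1 at 28.4, SON at 24.6 and PSPC1 at 18.8 to NEAT1 at 6.53 RPKM. No neighbours in this order overlapped between libraries. In shRBM39 MALAT1 came after SON and PSPC1, at 14.9 RPKM, NEAT1 was at 3.40 RPKM, and the libraries of SON (27.8 to 30.0 RPKM) and PSPC1 (27.1 to 28.9 RPKM) overlapped. RPKM of NEAT1 divides by the 22767 bases of the long form, so it would understate the level if most of the RNA were the short form. The share of the forms was not measured.

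**Figure D4:**
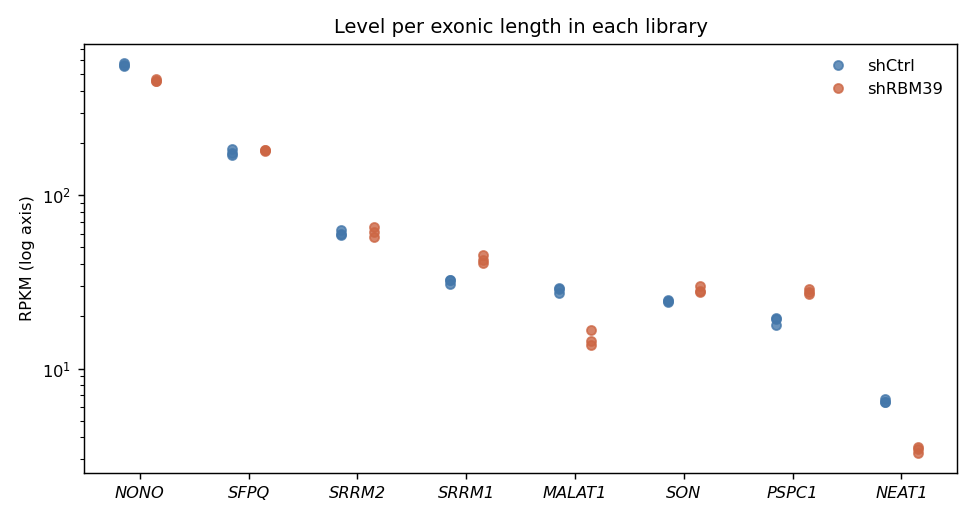
Level scaled to exonic length and library total (RPKM, log axis) of the 8 genes in every library, ordered by the shCtrl mean. MALAT1 stood above SON and PSPC1 in shCtrl and below both in shRBM39, and NEAT1 was lowest in each group.

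None of the 8 genes had a record among the 1582 splicing records of the series. That list held only records past a threshold of p and of difference, so unlisted events of these genes were not analysed here.

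Further genes of the same bodies were taken from 8 lists with 81 genes, of which 80 were in the table. Among the mRNAs of 18 other paraspeckle proteins, 9 rose, 4 fell and 5 did not pass the test, beside 29.2% higher and 29.9% lower of all tested genes. The median log2 fold change was 0.12 against -0.01 over all tested genes. TARDBP, the RNA-binding protein TDP-43, went from 188 ± 2.44 to 313 ± 7.86 CPM (SD, n = 3), and the log2 fold change was 0.74 (SE 0.04, adjusted p = 2.88e-18). HNRNPM, a splicing repressor, rose by 0.54 on the log2 scale. DAZAP1, an RNA-binding protein of splicing and translation, fell by 0.54 on the log2 scale, from 275 ± 21.4 to 189 ± 2.16 CPM.

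Among the mRNAs of 23 further speckle proteins, 16 rose, 5 fell and 2 did not pass, beside 29.2% higher and 29.9% lower of all tested genes. The median log2 fold change was 0.28. ALYREF, an mRNA export adaptor, rose most, from 109 ± 17.5 to 201 ± 3.63 CPM (SD, n = 3), and the log2 fold change was 0.89 (SE 0.06, adjusted p = 3.44e-15). THRAP3, a partner of the spliceosome, rose by 0.68 on the log2 scale, and the SR proteins SRSF2 and SRSF7 rose by 0.61 and 0.59. The 5 that fell, picked out after their values were seen, were SRSF11, an SR protein, the cyclophilins NKTR and PPIG, and the cyclins CCNL1 and CCNL2, with log2 fold changes of -0.15, -0.22, -0.36, -0.28 and -0.37.

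Of 10 kinases that phosphorylate SR proteins or act at speckles, 1 rose, 5 fell and 4 did not pass, so that 6 were called, a share near the 59.1% of all tested genes (29.2% higher and 29.9% lower). Their median log2 fold change was -0.11. CLK1 fell by 0.32, CLK3 by 0.26 and DYRK1A by 0.22 on the log2 scale, and CDK12, a kinase of RNA polymerase II, rose by 0.23. Corrected for GC content and length, only 3 of the 10 kinases passed, and the calls of CLK3 and DYRK1A were lost (adjusted p = 0.17 and 0.0805). The CDK12 call was lost in both fits to RPKM (adjusted p = 0.184 and 0.182), and its log2 fold change was 0.11 with library totals alone. Among 7 other nuclear body proteins, 4 rose, 1 fell and 2 did not pass, beside 59.1% of all tested genes called (29.2% higher and 29.9% lower), with a median log2 fold change of 0.11. DAXX, a histone chaperone of PML bodies, rose by 0.48 and SP100, another PML body protein, fell by 0.39 on the log2 scale. WRAP53 and COIL, both of Cajal bodies, rose by 0.26 and 0.23, calls that were lost with library totals alone (adjusted p = 0.0694 and 0.169) and in both fits to RPKM.

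**Figure D5:**
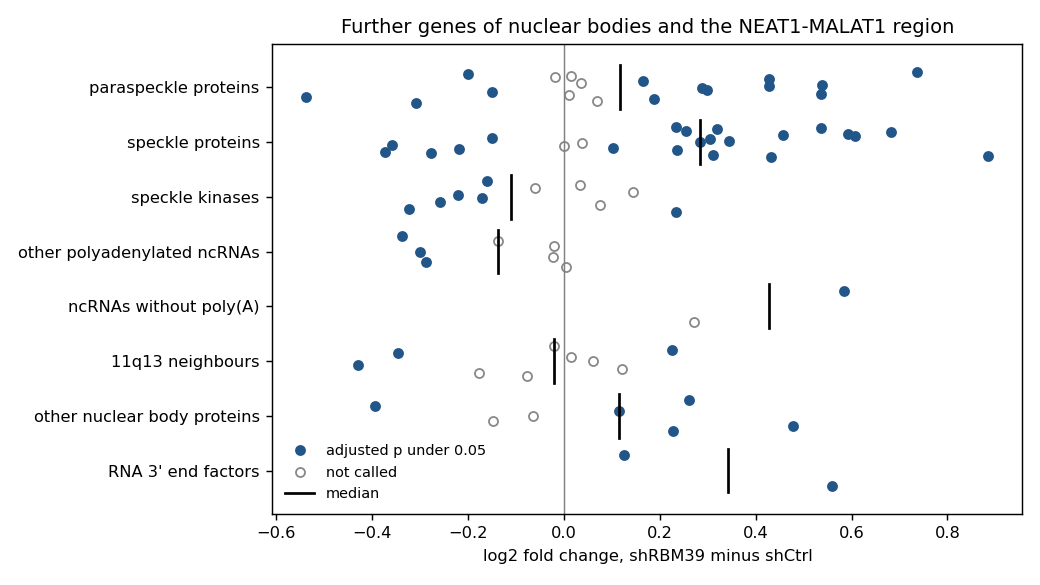
Log2 fold change (shRBM39 minus shCtrl) of each tested gene of the 8 further lists, filled where the adjusted p was under 0.05, with a black line for the median of the list. Speckle proteins had 16 of 23 genes called higher and a median of 0.28, and the kinases 5 of 10 called lower and a median of -0.11, beside 29.2% called higher and 29.9% called lower of all tested genes.

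Other noncoding RNAs set the fall of NEAT1 and MALAT1 beside transcripts of their kind. Of 7 polyadenylated ones, 0 rose, 3 fell and 4 did not pass, beside 59.1% of all tested genes called (29.2% higher and 29.9% lower), with a median log2 fold change of -0.14. The 4 that did not pass were the lowest in level, with means over all libraries of 1.31 to 26.9 CPM. Their log2 fold changes ran from -0.14 to 0.004, with SEs of 0.06 to 0.25. The 3 that fell had means of 58.7 CPM or more. TUG1, NORAD and KCNQ1OT1 fell by 0.34, 0.30 and 0.29 on the log2 scale, values nearer to 0 than those of NEAT1 and MALAT1, a difference that was not tested. With the GC and length correction the log2 fold change of KCNQ1OT1 was -0.11 (adjusted p = 0.0421). Of 4 RNAs made without a poly(A) tail, RPPH1, the RNA of RNase P, went from 11.8 ± 0.76 to 17.6 ± 1.95 CPM (SD, n = 3), and the log2 fold change was 0.58 (SE 0.08, adjusted p = 2.28e-07), and RN7SK had 0.27 (adjusted p = 0.0694). RMRP and TERC did not pass the low-count filter. RMRP, the RNA of RNase MRP, had 2, 2 and 3 counts in shCtrl and 12, 9 and 14 counts in shRBM39 replicates 1 to 3.

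Of 9 tested neighbours of NEAT1 and MALAT1 on 11q13, 1 rose, 2 fell and 6 did not pass, beside 59.1% of all tested genes called (29.2% higher and 29.9% lower), with a median log2 fold change of -0.02. LTBP3, which encodes a binding protein of latent TGF-beta, fell by 0.43 on the log2 scale, from 177 ± 6.15 to 132 ± 3.04 CPM (SD, n = 3). SLC25A45, a mitochondrial carrier, fell by 0.35 (adjusted p = 0.0132) and SSSCA1 rose by 0.23 (adjusted p = 0.00169). The SLC25A45 call was lost on leaving out shCtrl replicate 1 (adjusted p = 0.0514), shCtrl replicate 2 (0.0562) or shRBM39 replicate 1 (0.0668), and also under DESeq2 (0.0748) and with the GC and length correction (0.0598). With library totals alone 5 of the 9 neighbours passed, and the SSSCA1 call was lost (adjusted p = 0.151), as it was in both fits to RPKM.

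ELAC2, the RNase Z that trims the tRNA-like RNAs, went from 84.2 ± 2.63 to 124 ± 6.35 CPM (SD, n = 3), and the log2 fold change was 0.56 (SE 0.04, adjusted p = 2.13e-13). METTL16, a methyltransferase that binds the MALAT1 triple helix, had a log2 fold change of 0.13 (adjusted p = 0.0279). Only 1 of these 2 factors passed under DESeq2, upper-quartile scaling, library totals alone and the fits to RPKM, and also without shCtrl replicate 1 or 3 or shRBM39 replicate 1 or 2.

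The genes with the pattern most like that of NEAT1, by the distance between log2 CPM profiles over the 6 libraries after each gene's mean was removed, were PLXND1, FAM95C and GABPB1-AS1, with log2 fold changes of -0.79, -0.81 and -0.86. For MALAT1 they were JPX, RP11-958N24.1 and EEF1A1P4, with -0.79, -0.74 and -0.86. EEF1A1P4 is a pseudogene whose reads may come from its parent gene. Of the 12057 candidates, which averaged 5 CPM or more, MALAT1 was number 129 in closeness to NEAT1, and NEAT1 was number 36 in closeness to MALAT1.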

How the data were processed

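SW480 libraries of the 2 groups were made by the authors with a stranded mRNA kit. Per the labels' processing notes, Trimmomatic 0.36, STAR 2.5.3a, featureCounts from Subread 1.5.1, edgeR 3.12.1 and GRCh38 were used. The annotation release, the strand setting and the treatment of multi-mapped reads and of unique identifiers are not given in the sources used here, and they bear on overlapping rows, on pseudogenes and on NONO and HNRNPA1, which have close copies. Rows nested in NEAT1 carry counts, so a read over several rows could be counted in each. The authors deposited raw counts per gene with a length in bases, and RPKM values, which were recomputed from those counts within a relative difference of 1.2e-13. The deposited splicing records and their summary were read only for the names of the 8 genes. Columns named NC were taken as shCtrl, since the series has no other control.

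Counts were tested with edgeR 4.0.16 in R 4.3.3 (filterByExpr, TMM scaling, quasi-likelihood fit, group as the only term), and SEs were derived from the fold change and its F statistic. The script was tested on simulated data. Taken over genes together, no pair of replicates agreed within sampling noise (chi-square per degree of freedom 2.11 to 4.21). The common coefficient of variation beyond counting error was 0.035. The number of libraries therefore limits precision for genes with many counts, and depth also limits it for genes with few counts. DESeq2 1.42.0, limma 3.58.1 on log2 RPKM with 1 or 0.1 added, other scalings and filters, a GC and length correction, a replicate block and left-out libraries were alternatives. Genes named beyond RBM39 and the 8 were up to 4 per list with the largest absolute log2 fold change among called genes that averaged 5 CPM or more and did not overlap between groups (threshold 0.05 on the adjusted p), and the 3 most alike NEAT1 or MALAT1. A gene that this rule names is not reported here. METTL16, RN7SK, RMRP, the speckle proteins that fell and the overlapping rows were named after their values were seen. The genes and lists were chosen with earlier results of these data known. Sequences were read from GRCh38, with transcript ends from GENCODE v44, in which 80.1% of the 341 exons of the 8 genes were identical.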

Additional observations from a re-analysis of the deposited data

How the results depend on the processing

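The log2 fold changes of the 8 genes kept their sign under all alternatives run, and no call was lost when 1 library was left out. NEAT1 ran from -0.94 with library totals alone to -0.65 with the GC and length correction, MALAT1 from -0.93 to -0.72, NONO from -0.30 to -0.16, PSPC1 from 0.54 to 0.70, SON from 0.22 to 0.47 and SRRM1 from 0.41 to 0.62. SFPQ and SRRM2 lost their calls with library totals alone and in both fits to RPKM, where their adjusted p ran from 0.451 to 0.453 and from 0.73 to 0.815, so that 6 of the 8 genes were called. RPKM is also scaled by library totals. The fits to RPKM are therefore no separate check on the scaling, here and for the genes of the lists. Of all 18243 tested genes, 11146 were called with library totals alone, and 10511 and 10519 in the fits to RPKM with 1 and 0.1 added. Library totals alone moved the median log2 fold change of all genes from -0.01 to -0.14 and the share of called genes that were higher from 49.4% to 33.9% (33.6% in the fits to RPKM). The cause was not tested.

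Tested against an absolute log2 fold change of 0.5, a stricter threshold, 2232 of the 18243 tested genes were called in place of 10790. Beside that share, 3 of the 8 genes (NEAT1, MALAT1 and PSPC1) were called. So were 1 of the 18 paraspeckle proteins, 4 of the 23 speckle proteins and 0 of each other list. Of the factors of the RNA 3′ ends, 1 in place of 2 passed under DESeq2, upper-quartile scaling, library totals alone, both fits to RPKM and an adjusted p under 0.01. Of the 11q13 neighbours, 5 in place of 3 passed with library totals alone and in both fits to RPKM, which left 3 in place of 5 other nuclear body proteins. With the GC and length correction 3 kinases were called in place of 6, and without the low-count filter 3 in place of 1 of the RNAs without poly(A) tail were called.

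With 1 library left out, 8 of 8 genes stayed called, all called genes ran from 10138 to 10263, paraspeckle proteins 13 to 13, speckle proteins 20 to 21, kinases 5 to 6, polyadenylated noncoding RNAs 3 to 3, RNAs without poly(A) tail 1 to 3, 11q13 neighbours 2 to 3, other nuclear body proteins 4 to 5 and end factors 1 to 2. The log2 differences of ratios ran from -0.05 to 0.08 for MALAT1 to NEAT1, 0.30 to 0.38 for SFPQ to NONO, 0.83 to 0.90 for PSPC1 to NONO, 0.36 to 0.43 for SRRM1 to SRRM2 and 0.17 to 0.23 for SON to SRRM2. The sign for MALAT1 to NEAT1 was negative when shCtrl 2, shCtrl 3, shRBM39 1 or shRBM39 3 was the library left out, at values near 0. Of the RNAs without poly(A) tail, 2 passed without shCtrl 1 or shCtrl 3, and 3 without shCtrl 2 or shRBM39 2.

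Libraries with the same replicate number share only that number: their deviations from the group means correlated at -0.003, -0.080 and 0.038 over 9775 genes. With the replicate number as a block, 10810 genes and 8 of the 8 genes were called, the counts for the lists were as before and no gene named from them lost its call. The alternatives planned for splicing gave no value, because none of the 8 genes had a record.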
